A study of Rattus norvegicus with 6 samples.

Results

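The potassium channels that repolarize the heart muscle cell were compared between rats of a congenic strain and their Dahl S parent strain. The set held 10 genes, grouped by the current they carry: Kcnd2, Kcnd3 and Kcnip2 for the transient outward current Ito, Kcna5 for the ultrarapid delayed rectifier IKur, Kcnh2 for IKr, Kcnq1 for IKs, Kcnj2 for the inward rectifier IK1, Kcnj3 and Kcnj5 for the acetylcholine-gated IKACh, and Kcnj11 for the ATP-sensitive IKATP. All probe sets that the platform annotation assigned to exactly 1 of these genes were taken, which gave 20 of the 31042 probe sets tested. All 10 genes had at least 1 probe set, and none of the 20 was removed by a filter.

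Hearts of male rats were profiled on 6 Affymetrix rat expression arrays. The control group was the inbred Dahl S rat (Dahl salt-sensitive), and the other group was the congenic S.LEW(10)x12x2x3x5, which carries chromosome 10 material of the Lewis rat on the Dahl S background. All rats of both groups were born on the same day, were weaned at 30 days, ate a low-salt diet (0.3%) and were killed when 53 days old. There were 3 arrays of either strain, and each array held heart RNA pooled from 2 rats, so that the spread between arrays is that between pools. The arrays carried markers of both heart chambers, with the ventricular light chain gene Myl2 at 14.86 to 14.92 and the atrial Myl7 at 14.10 to 14.21. How far the Lewis segment reaches is not stated in the sources at hand.

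The action potential of a heart muscle cell ends when potassium leaves the cell through several channels that open in turn. The QT interval of the electrocardiogram spans ventricular depolarization and repolarization, and stronger repolarizing currents shorten it. In rats and mice, whose action potentials are short, Ito and the related Kv currents carry most of this repolarization, whereas IKr and IKs are the main delayed rectifiers of the human ventricle. The congenic strain is known for a short QT interval, and the comparison asked whether transcripts of these channels differed between the hearts. An array reads transcript level only, and no current was measured here.

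Values are log2 expression per probe set, on which a difference of 1 is a doubling, and every difference is the congenic mean less the Dahl S mean, with n = 3 arrays per strain. None of the 20 potassium channel probe sets passed the strain test in limma (0 called, adjusted p from 0.721 to 0.999), against 0.0354% of all probe sets called at an adjusted p under 0.05. At an unadjusted p under 0.05 there were 2 of 20, Kcna5 higher and Kcnd2 lower in congenic hearts, against 6.67% of all probe sets (3.57% higher and 3.1% lower). The strains did not overlap in 3 of 20, 1 with the congenic arrays above and 2 with them below, against 12.7% of all probe sets (5.83% above and 6.9% below). The counts on the members therefore lay near the background. The median difference was 0.01 over the 20 probe sets and 0.00 over all probe sets.

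**Figure D1:**
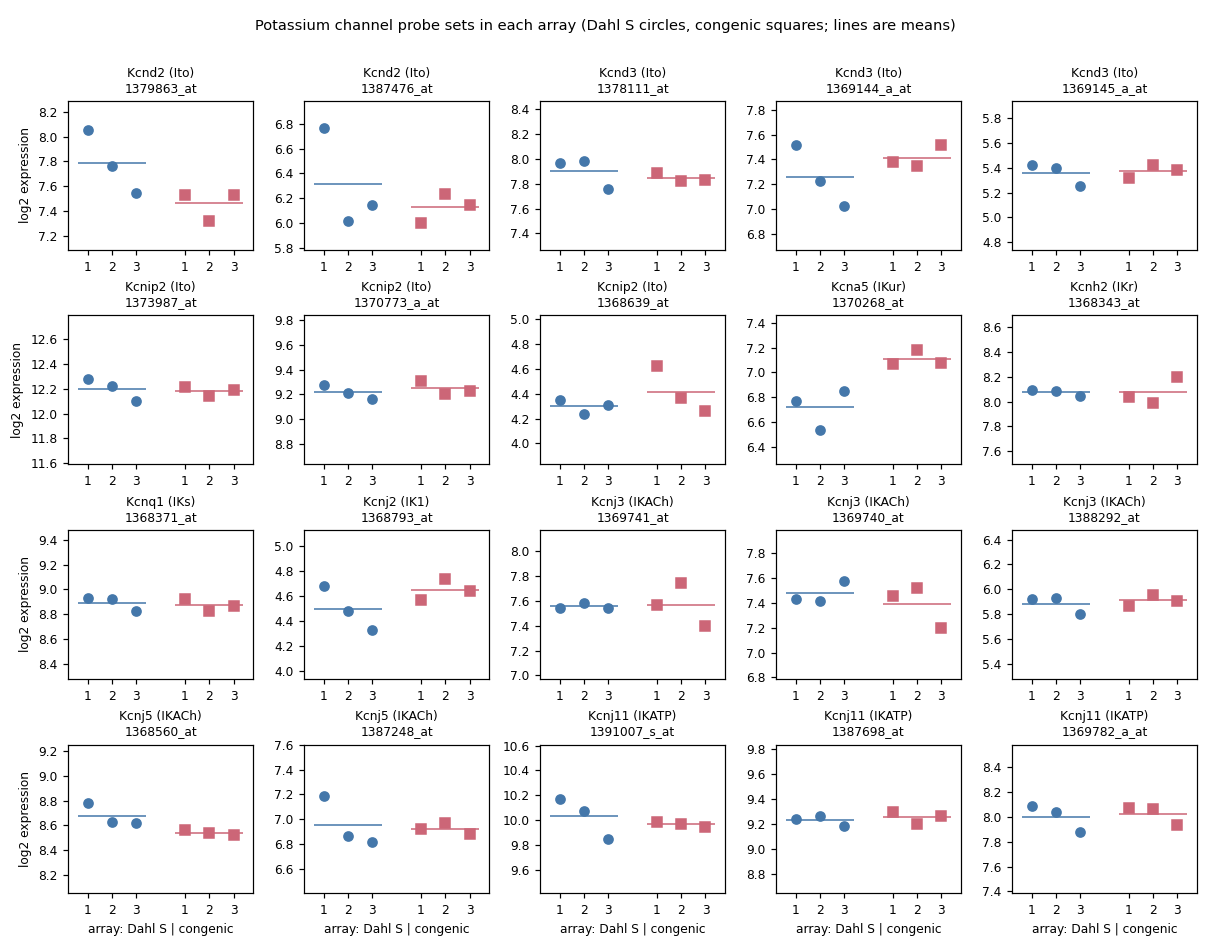
Log2 expression (y axis, the same span of log2 units in every panel) of the 20 potassium channel probe sets in each array (x axis), with Dahl S as circles, congenic as squares and the strain means as lines. The congenic arrays of Kcna5 lie at 7.07 to 7.18, above all Dahl S arrays, and those of Kcnd2 1379863_at at 7.32 to 7.53, below all Dahl S arrays.

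The promoters of both genes are shown because these were the members at an unadjusted p under 0.05. The windows are the 250 bases before the annotated start in RefSeq (build GRCr8), in the gene's direction, for Kcnd2 chr4:50742235-50742484 on the plus strand and for Kcna5 chr4:161043810-161044059 on the minus strand. RefSeq promoters were at hand for 6 of the 10 genes. Capitals mark matches on either strand to the E-box CANNTG and to GGAAA, the core of NFAT sites.
Kcnd2: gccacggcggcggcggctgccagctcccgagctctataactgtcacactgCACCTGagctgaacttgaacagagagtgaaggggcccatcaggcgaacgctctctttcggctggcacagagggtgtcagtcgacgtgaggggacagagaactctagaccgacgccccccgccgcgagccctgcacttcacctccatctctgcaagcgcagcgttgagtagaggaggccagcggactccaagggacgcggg
Kcna5: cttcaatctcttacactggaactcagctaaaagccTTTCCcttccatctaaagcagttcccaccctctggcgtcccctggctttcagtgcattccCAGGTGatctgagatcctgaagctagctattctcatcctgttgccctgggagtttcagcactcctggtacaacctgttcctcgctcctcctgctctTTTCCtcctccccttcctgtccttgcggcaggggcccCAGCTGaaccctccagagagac
The window of Kcna5 held 2 matches to CANNTG and 2 to GGAAA, and that of Kcnd2 held 1 match to CANNTG and 0 to GGAAA. Matches are common, since 65.5% of 33469 rat promoter windows of this length held CANNTG and 56.9% held GGAAA. Neither window held TATAAA (12.9% of all windows), the GATA factor motif GATAAG (6.18%) or ACANNTGT (6.71%), a motif of Iroquois factors that itself contains CANNTG. These matches describe letters only, and no binding was measured.

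The transient outward current opens first and sets the early notch of repolarization. Kcnd2 encodes Kv4.2, a pore subunit of its fast component. Its brighter probe set, 1379863_at, read 8.05, 7.76 and 7.54 on the Dahl S arrays and 7.53, 7.32 and 7.53 on the congenic arrays. Each congenic array was below every Dahl S array, but Dahl S array 3 was above the nearest congenic array by about 0.01 only. The mean was 7.79 ± 0.26 in Dahl S hearts and 7.46 ± 0.12 in congenic hearts (SD, n = 3 each). The difference was -0.33 (SE 0.13, 95% interval -0.62 to -0.03; limma unadjusted p = 0.0353, adjusted p = 0.736). Leaving out Dahl S array 1 gave -0.19, and leaving out Dahl S array 3 gave -0.45.

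The dimmer Kcnd2 probe set, 1387476_at, read 6.77, 6.02 and 6.15 in Dahl S hearts and 6.00, 6.24 and 6.14 in congenic hearts. Here the strains overlapped, and Dahl S array 1 stood apart from the other 5 arrays. The difference was -0.18 (95% interval -0.60 to 0.23) and became 0.04 without Dahl S array 1. The lower Kcnd2 level was thus seen without overlap on 1 of the 2 probe sets.

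In each strain the brighter Kcnd2 probe set was lowest on the array with the most adipocyte marker signal. These 2 arrays, Dahl S array 3 and congenic array 2, were also those with the brightest hybridization controls (11.54 and 11.55), which are spiked into each sample. The log2 of the summed signal of 7 adipocyte markers was 12.22, 12.64 and 13.19 on Dahl S arrays 1, 2 and 3, and 12.39, 12.92 and 12.33 on congenic arrays 1, 2 and 3. The ranges overlapped between strains, 6 of the 7 markers had a negative strain difference, and 1 of 7, a positive one, had an unadjusted p under 0.05. The 11 measured ventricular muscle markers had a summed level of 17.48 to 17.51 in Dahl S hearts and 17.48 to 17.49 in congenic hearts. Of these, 3 had a positive and 8 a negative strain difference. Only Myh7 (0.29) had an unadjusted p under 0.05 in limma, against 7.03% of all genes. The part of fat tissue in the Kcnd2 values was not tested. In such bulk samples, fewer cells of a type and less RNA per cell cannot be told apart.

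Kcnd3 encodes Kv4.3, the other pore subunit of the fast Ito. Its probe set 1378111_at read 7.97, 7.98 and 7.75 in Dahl S hearts and 7.89, 7.82 and 7.83 in congenic hearts, a difference of -0.06 (95% interval -0.23 to 0.12). The probe set 1369144_a_at read 7.51, 7.23 and 7.02 in Dahl S hearts and 7.38, 7.34 and 7.52 in congenic hearts. All congenic arrays lay within or just above the wide Dahl S range, and the difference was 0.16 (95% interval -0.12 to 0.44). It ran from 0.04 to 0.29 with 1 array left out, the highest without Dahl S array 1 and the lowest without Dahl S array 3. The dim probe set 1369145_a_at differed by 0.02. The suffix _a marks probe sets that can read several transcripts of a gene, so the 3 need not read the same Kcnd3 transcripts.

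Kcnip2 encodes KChIP2, a calcium-binding subunit that helps Kv4 channels reach the membrane. Its brightest probe set, 1373987_at, read 12.28, 12.22 and 12.10 in Dahl S hearts and 12.21, 12.14 and 12.19 in congenic hearts. The strains overlapped, and the difference was -0.02 with a 95% interval of -0.17 to 0.13 (limma adjusted p = 0.971). The probe set 1370773_a_at gave 0.03 (95% interval -0.11 to 0.17). The dimmest, 1368639_at, lay at 4.24 to 4.35 in Dahl S hearts and 4.26 to 4.62 in congenic hearts and differed by 0.12. Among the 8 Ito probe sets the differences ran from -0.33 to 0.16, with 4 above and 4 below 0.

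Kcna5 encodes Kv1.5, the pore subunit of the ultrarapid delayed rectifier. In human heart this current is prominent in the atria, and in rodents Kv1.5 is also present in the ventricle and in vascular smooth muscle. Its only probe set, 1370268_at, read 6.77, 6.54 and 6.85 in Dahl S hearts and 7.07, 7.18 and 7.08 in congenic hearts. Each congenic array was above every Dahl S array. The gap was wider than the range of the congenic arrays but narrower than that of the Dahl S arrays. The mean was 6.72 ± 0.16 in Dahl S hearts and 7.11 ± 0.06 in congenic hearts (SD, n = 3 each). The difference of 0.39 corresponds to 1.31-fold (95% interval 1.14-fold to 1.51-fold; SE 0.09, limma unadjusted p = 0.00247, adjusted p = 0.721). This was the member of smallest p, picked out of 20, and it did not pass over all probe sets. With 1 array left out it ran from 0.30 to 0.45, and its unadjusted p was under 0.05 in all 15 alternative fits, with adjusted p from 0.233 to 0.993.

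Markers of other cells of the heart were read on the same arrays, beside a background of 7.03% of all genes at an unadjusted p under 0.05, 3.47% being higher and 3.55% lower in congenic hearts. The log2 summed signal of 10 pericyte and smooth muscle markers did not overlap between strains. It ran from 13.97 to 14.05 in Dahl S hearts and from 14.08 to 14.15 in congenic hearts. Des, at 13.04 to 13.27, was the brightest of the 10 and weighs most in this sum. It is also expressed in heart muscle cells, so the sum does not read pericytes and smooth muscle alone. Whether the sums would still part without Des was not tested. The median of the 10 markers relative to the mean of the 6 arrays did overlap. It ran from -0.094 to 0.052 in Dahl S hearts and from 0.0051 to 0.13 in congenic hearts. Of these markers 9 of 10 had a positive strain difference and 0 of 10 had an unadjusted p under 0.05, with a median difference of 0.12. Atrial muscle markers overlapped, at 16.43 to 16.45 in Dahl S hearts and 16.41 to 16.50 in congenic hearts, with 6 of 10 positive, 0 at an unadjusted p under 0.05 and a median of 0.01. Fibroblast markers ran from 15.55 to 15.68 and from 15.69 to 15.88, with 10 of 10 positive and 2 at an unadjusted p under 0.05. These 2 were the collagen genes Col1a2 (0.39) and Col1a1 (0.24), and the other markers differed by 0.02 (Pdgfra) to 0.26 (Postn). The median of the 10 fibroblast markers relative to the mean of the 6 arrays overlapped, at -0.12 to -0.0063 in Dahl S hearts and -0.024 to 0.14 in congenic hearts. Macrophage markers ran from 12.04 to 12.43 and from 12.33 to 12.38, with 9 of 10 positive and 4 at an unadjusted p under 0.05. Their sums overlapped, but their relative median did not, at -0.21 to 0.016 in Dahl S hearts and 0.036 to 0.15 in congenic hearts. Of 7 measured neuron and Schwann cell markers, 7 were positive and 3 (Prph, Dbh and Th) had an unadjusted p under 0.05, with a median difference of 0.04. Their summed signal overlapped, at 9.29 to 9.54 in Dahl S hearts and 9.37 to 9.72 in congenic hearts, whereas their median relative to the mean of the 6 arrays did not, at -0.081 to -0.0093 and -0.0008 to 0.24. Every fibroblast, macrophage or neuron and Schwann cell marker at an unadjusted p under 0.05 was higher in congenic hearts, and limma called 0 of them after adjustment. Of 9 measured endothelium markers, 6 were positive and 1 (Eng, higher) had an unadjusted p under 0.05, with a median difference of 0.03. Of 11 measured sinus node and conduction markers, 9 were positive and 0 had an unadjusted p under 0.05, with a median of 0.07. The summed signals of both lists overlapped between strains. The part of any of these cells in the Kcna5 difference was not tested.

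**Figure D2:**
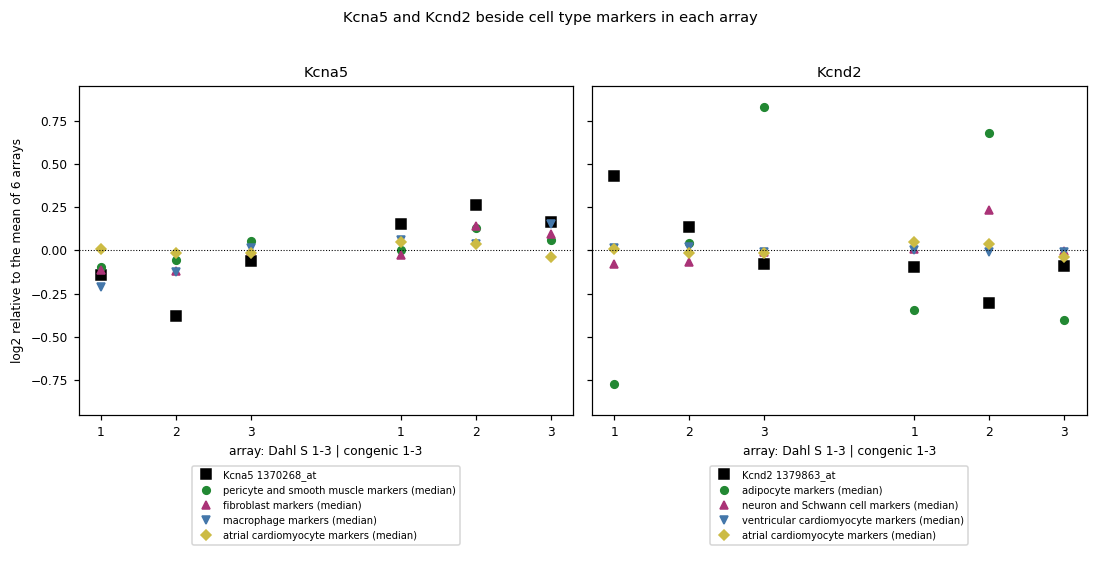
Black squares are Kcna5 (left) and the brighter Kcnd2 probe set (right) in each array (x axis). The y axis is the log2 level relative to the mean of the 6 arrays. Coloured symbols on the left are marker medians of pericyte and smooth muscle, fibroblast, macrophage and atrial muscle. On the right they are those of adipocyte, neuron and Schwann cell, ventricular muscle and atrial muscle. The adipocyte markers spread from -0.77 on Dahl S array 1 to 0.83 on Dahl S array 3, while atrial and ventricular markers stay within 0.05 of 0.

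Among genes outside the set, array values most like those of Kcna5 were found for Camkk1, C1galt1 and Tmem119. Camkk1 encodes a calcium-dependent protein kinase kinase, C1galt1 an enzyme of O-glycan synthesis and Tmem119 a transmembrane protein. Likeness was the root mean square difference of values centred on each probe set's mean over the 6 arrays, among 12248 brighter probe sets of 1 gene, and it was 0.07, 0.08 and 0.08. Their strain differences were 0.26, 0.30 and 0.31, and none passed (limma adjusted p from 0.729 to 0.736). The member of largest spread over the arrays was the dimmer Kcnd2 probe set, and Tbl1x, Phf20 and Dag1 were most like it, with root mean square differences of 0.06, 0.08 and 0.09. These are the best of many candidates over 6 arrays.

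The delayed rectifiers IKr and IKs end the action potential in larger mammals. Kcnh2 encodes the pore subunit of IKr, known as ERG, whose gain or loss of function shortens or prolongs the QT interval in people. It read 8.10, 8.08 and 8.05 in Dahl S hearts and 8.04, 7.99 and 8.20 in congenic hearts. The congenic arrays lay on both sides of the Dahl S arrays. The difference was less than 0.001 in size, with a 95% interval of -0.16 to 0.16, which leaves room for 0.895-fold to 1.12-fold (limma adjusted p = 0.999). Kcnq1, the pore subunit of IKs, read 8.93, 8.92 and 8.83 in Dahl S hearts and 8.93, 8.82 and 8.86 in congenic hearts. Its difference was -0.02 (95% interval -0.16 to 0.12), and its range over all 6 arrays, 0.11, was the smallest of the 20 probe sets.

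The inward rectifier IK1 holds the resting potential and shapes the last part of repolarization. Kcnj2 encodes Kir2.1, its main pore subunit, and its gain of function is a known cause of short QT. Among the 10 genes it alone lies on chromosome 10, with 357 measured genes between it and Rffl, which published work on these rats has studied. It was not known from these sources whether the Lewis segment holds Kcnj2. Its only probe set, 1368793_at, read 4.68, 4.48 and 4.32 in Dahl S hearts and 4.57, 4.74 and 4.64 in congenic hearts. The strains overlapped, and the signal was dimmer than that of the median probe set, whose mean was 6.55. The difference was 0.16 (95% interval -0.07 to 0.38; limma adjusted p = 0.814), and became 0.25 when Dahl S array 1 was left out and 0.07 when Dahl S array 3 was. A change of the Kcnj2 array reading up to 1.30-fold lies within the interval. How closely so dim a reading follows the transcript level was not tested.

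IKACh slows the sinus node and shortens the atrial action potential when the vagus nerve is active. Its channel is built from Kcnj3 (Kir3.1) and Kcnj5 (Kir3.4). The brightest Kcnj3 probe set, 1369741_at, read 7.54, 7.58 and 7.54 in Dahl S hearts and 7.57, 7.75 and 7.40 in congenic hearts. The Dahl S arrays lay within the wider congenic range, and the difference was 0.02 (95% interval -0.19 to 0.22). The others, 1369740_at and 1388292_at, differed by -0.09 and 0.03. On the first 2 of these probe sets congenic array 3 was the lowest of all arrays, at 7.40 and 7.20, and that array also had the lowest summed signal of atrial markers, 16.41. The part of atrial tissue in these values was not tested.

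The brighter Kcnj5 probe set, 1368560_at, read 8.78, 8.63 and 8.62 in Dahl S hearts and 8.57, 8.54 and 8.52 in congenic hearts. Each congenic array was below every Dahl S array, and the difference was -0.13 (SE 0.06, 95% interval -0.28 to 0.01; limma unadjusted p = 0.0697, adjusted p = 0.769). It ran from -0.16 to -0.08 with 1 array left out, the smallest without Dahl S array 1. The dimmer probe set, 1387248_at, overlapped between strains and differed by -0.03 (95% interval -0.26 to 0.20).

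Kcnj11 encodes Kir6.2, the pore of the ATP-sensitive channel that opens when the energy supply of the cell falls. Its probe set 1391007_s_at read 10.17, 10.07 and 9.85 in Dahl S hearts and 9.99, 9.97 and 9.94 in congenic hearts, a difference of -0.06 (95% interval -0.26 to 0.14). The suffix _s marks a probe set whose probes can match transcripts of other genes. The probe set 1387698_at read 9.24, 9.26 and 9.18 against 9.30, 9.20 and 9.26, a difference of 0.03 (95% interval -0.11 to 0.16), and 1369782_a_at differed by 0.02. All 3 overlapped between strains.

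The half-widths of the 95% intervals on the 20 probe sets ran from 0.13 to 0.42 with a median of 0.19, and the number of arrays limits this precision. For 17 of the 20 the interval lay wholly within 1.5-fold in either direction, and for 10 within 1.2-fold. The 3 that reached past 1.5-fold were Kcna5 and both Kcnd2 probe sets. In the strain test the smallest difference that was called on any probe set was 0.59.

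**Figure D3:**
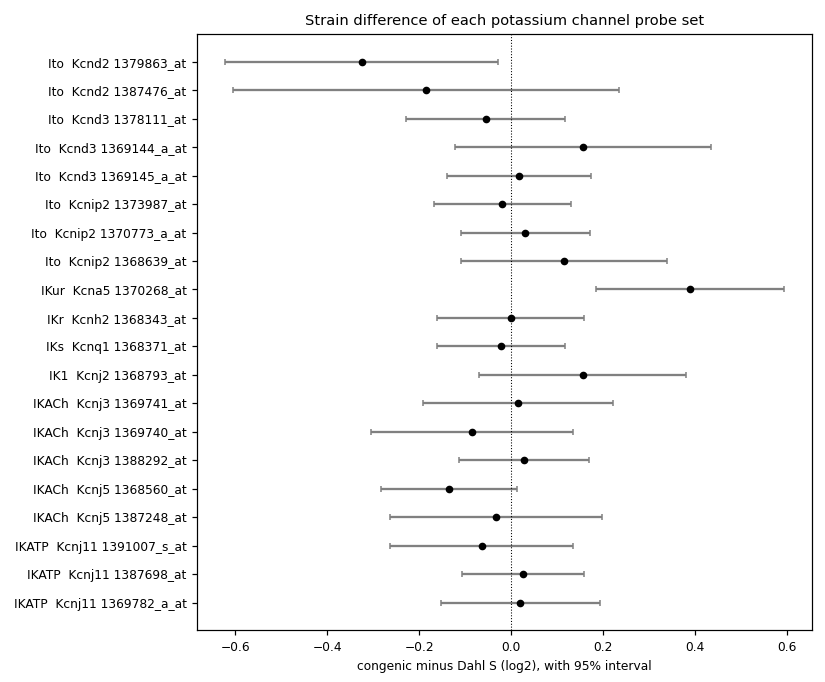
Strain difference of each potassium channel probe set (x axis, congenic minus Dahl S, log2) with its 95% interval, ordered by current (y axis). The intervals of Kcna5 (0.18 to 0.59) and Kcnd2 1379863_at (-0.62 to -0.03) leave out 0, and the other 18 include it.

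The hybridization controls, bacterial and phage transcripts spiked into each sample, were brightest on Dahl S array 3 (11.54) and congenic array 2 (11.55), and ran from 10.67 to 10.83 elsewhere. Within the 4 arrays of lower level the Kcna5 difference was 0.42, and between the 2 arrays of high level it was 0.33. For Kcnd2 1379863_at both values were below 0 too, -0.38 and -0.22, and for Kcnj5 1368560_at they were -0.16 and -0.08. For Kcnj2 they were 0.02 and 0.42, so that its higher mean came mostly from the arrays of high level. On the dimmer Kcnd2 probe set they were -0.32 and 0.09. Lymphocyte and thymocyte markers set other arrays apart, whose log2 summed signal was highest in the third Dahl S pool (11.03), next in the first congenic pool (10.35) and 9.24 to 9.33 elsewhere, and their part in the differences was not tested.

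**Figure D4:**
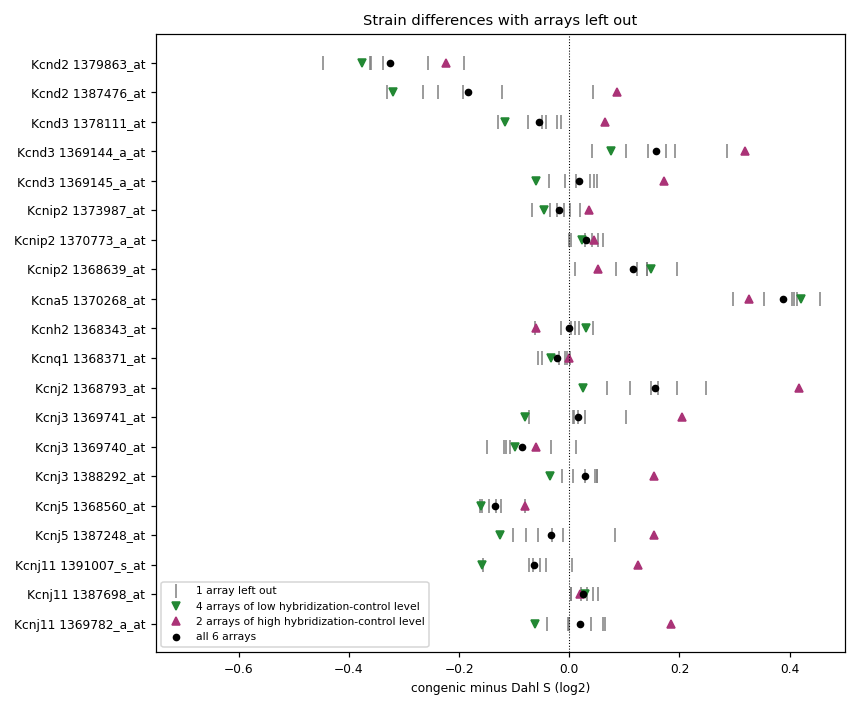
Strain difference of each potassium channel probe set (x axis, congenic minus Dahl S, log2) over all 6 arrays (circles), with 1 array left out (grey ticks), within the 4 arrays where hybridization controls were low (triangles pointing down) and between the 2 where they were high (triangles pointing up). Every symbol of Kcna5 lies above 0, from 0.30 to 0.45 for the ticks, and every symbol of Kcnd2 1379863_at below 0.

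The other genes of these channels were read from 3 lists, with the brightest probe set standing for each gene: other pore-forming potassium channels, auxiliary subunits, and partners in trafficking and transcription. Of the 107 listed genes 92 were measured, and 44 of these were dimmer than the median probe set. Limma called 0 of them, against 0.0352% of 14217 genes. At an unadjusted p under 0.05 there were 10 of 92 (10.9%), 2 higher and 8 lower, against 7.03% of all genes (3.47% higher and 3.55% lower). The median difference was 0.00, and that of all genes was -0.01.

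Of 38 other pore-forming channels, 4 had an unadjusted p under 0.05, of which 1 was higher and 3 were lower, and the median was 0.02. Kcna2, the Kv1.2 delayed rectifier subunit of the same family as Kcna5, read 8.40, 8.39 and 8.50 in Dahl S hearts and 8.08, 8.04 and 8.11 in congenic hearts on probe set 1379092_at. The arrays of each strain lay close together and far from those of the other strain. The difference was -0.35 (SE 0.06, 95% interval -0.49 to -0.22; limma unadjusted p = 3.27e-04, adjusted p = 0.350) and ran from -0.37 to -0.32 with 1 array left out. Its dimmer probe set, 1370612_at, differed by 0.01. Kcnk2, the stretch-sensitive TREK-1 channel, differed by -0.17 on its brighter probe set and by -0.0012 on the dimmer. Kcng2, a silent Kv subunit, differed by -0.13 and -0.15 on its bright probe sets and by 0.07 on the dim one. Kcnc1 (0.17) was dim, at a mean of 4.51 in Dahl S hearts and 4.68 in congenic hearts.

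Of 16 auxiliary subunits, 2 had an unadjusted p under 0.05, of which 1 was higher and 1 lower, and the median was 0.06. Kcne2, a small partner of several Kv channels including ERG, read 5.88, 5.73 and 5.61 in Dahl S hearts and 5.91, 5.96 and 6.00 in congenic hearts. Each congenic array was above every Dahl S array, and the difference was 0.21 (95% interval 0.04 to 0.39; limma adjusted p = 0.736). Its other probe sets, dimmer still, differed by 0.02 and -0.12. Kcnab3, a cytoplasmic beta subunit of Kv1 channels, differed by -0.13 at a dim signal.

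Of 38 trafficking and transcription partners, 4 had an unadjusted p under 0.05, all 4 lower, and the median was -0.03. They were Fgf12, better known as a modulator of sodium channels (-0.18), the ubiquitin ligase gene Nedd4l (-0.18), and the membrane adaptor genes Ank2 (-0.14) and Ank3 (-0.13), with limma adjusted p from 0.736 to 0.744. Where Fgf12, Ank2 and Ank3 had dimmer probe sets, these differed by 0.005 to 0.15. Irx3 and Irx5, Iroquois transcription factors of which Irx5 is known to repress Kcnd2 in the mouse ventricle, differed by -0.22 (95% interval -0.44 to 0.0027; limma unadjusted p = 0.0522) and -0.17 (95% interval -0.36 to 0.02; limma unadjusted p = 0.0674). Irx4, the other Iroquois gene of the list, differed by -0.01 (95% interval -0.15 to 0.13; limma unadjusted p = 0.858). All 3 were singled out after their values had been seen.

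**Figure D5:**
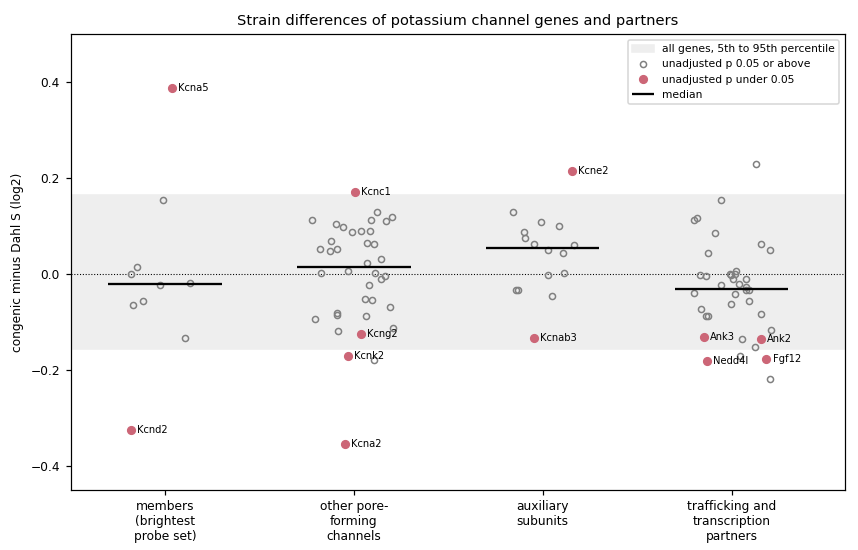
Strain difference (y axis, congenic minus Dahl S, log2) of the 10 members and of the genes in 3 related lists (x axis), with 1 point per gene, filled where the unadjusted p was under 0.05. Bars are list medians and the grey band holds the 5th to 95th percentile of all genes, -0.16 to 0.16. Kcna5 (0.39), Kcnd2 (-0.33) and Kcna2 (-0.35) lie farthest from 0.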

How the data were processed

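The deposited values were used as given. Per the submitters' processing notes the authors summarised the arrays with RMA, whose log2 values per probe set are background-corrected and normalized between arrays. No source at hand gives the RMA version. The 57 control probe sets were set aside, and 31042 of 31099 were tested. Symbols came from the platform annotation, updated through the GRCr8 RefSeq table, with 20826 probe sets having 1 gene, 436 several and 9780 none. The strain term was fitted on all 6 arrays with limma 3.58.1 (lmFit, then eBayes, no other covariate; R 4.3.3), and p-values were adjusted over all of the tested probe sets (Benjamini-Hochberg). Python 3.11.15 and matplotlib 3.10.9 made the plots.

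The members, lists, tests and naming rule were chosen with earlier results of these data known. The rule named every member probe set and, from each list, up to 4 genes of smallest p with an unadjusted p under 0.05. Irx3, Irx4 and Irx5 were added after their values had been seen. The alternatives were a replicate block, each array left out, another normalization, a filter on dim probe sets, other variance models, array weights and the hybridization-control level. Both strains use the same replicate numbers, which the labels link to no cage or day, and p-values measure the spread between pools.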

Additional observations from a re-analysis of the deposited data

How the results depend on the processing

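Limma called 0 of the 20 member probe sets and 0 of the 92 listed genes in the fit to all arrays and in each alternative that gives a test. The count over all 31042 probe sets, 11, was 5 to 6 with 1 array left out, 5 with the replicate block, 0 with ordinary variance, 5 when blocked on the hybridization-control level and 2 in the 4 arrays of low level alone, but 16 with the intensity trend in the variance and 16 with array weights. It was 9 with quantile normalization, 9 with the filter on dim probe sets and 11 with median centring. At an unadjusted p under 0.05, the 2 member probe sets became 1 with quantile normalization and 1 with ordinary variance, in both cases without Kcnd2, and 1 to 3 with 1 array left out. They became 3 with the filter on dim probe sets and 3 with the intensity trend, where Kcnj5 1368560_at joined (unadjusted p = 0.0485 and 0.0457 in limma), and 3 without Dahl S array 3, where Kcnj11 1391007_s_at joined (0.0413). Only Kcna5 remained without Dahl S array 2, congenic array 1 or congenic array 2, while without Dahl S array 1 Kcnd2 was replaced by Kcnd3 1369144_a_at and Kcnj2. The 10 listed genes became 4 with the replicate block, 6 with quantile normalization, 19 with array weights, 4 within the 4 arrays of low level, and 3 to 14 with 1 array left out (14 without Dahl S array 1, 4 without Dahl S array 2, 9 without Dahl S array 3, and 5, 4 and 3 without congenic arrays 1, 2 and 3). The deviations of same-numbered arrays from their strain means correlated at -0.07, -0.06 and -0.18, so the numbers were not taken to pair the arrays. With the replicate block the count of member probe sets at an unadjusted p under 0.05 was 2. The cause of these shifts was not tested.

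Several small differences changed sign, as did that of the dimmer Kcnd2 probe set. With 1 array left out the ranges were -0.33 to 0.0436 for Kcnd2 1387476_at, -0.0673 to 0.0195 for Kcnip2 1373987_at, -0.0626 to 0.0434 for Kcnh2 1368343_at, -0.10 to 0.0827 for Kcnj5 1387248_at, -0.16 to 0.0058 for Kcnj11 1391007_s_at, -0.0364 to 0.05 for Kcnd3 1369145_a_at, -0.0124 to 0.0502 for Kcnj3 1388292_at, -0.0403 to 0.065 for Kcnj11 1369782_a_at, -0.0011 to 0.0613 for Kcnip2 1370773_a_at, -0.0568 to 0.0007 for Kcnq1 1368371_at, -0.0735 to 0.10 for Kcnj3 1369741_at and -0.15 to 0.0114 for Kcnj3 1369740_at. Quantile normalization gave -0.0119 for Kcnd3 1369145_a_at and 0.0126 for Kcnh2 1368343_at. Median centring gave 0.0005 for Kcnh2 1368343_at. Array weights gave -0.0092 for Kcnd3 1369145_a_at, 0.0097 for Kcnh2 1368343_at, -0.025 for Kcnj3 1369741_at, -0.0003 for Kcnj3 1388292_at, 0.0127 for Kcnj5 1387248_at and -0.0085 for Kcnj11 1369782_a_at. In the 4 arrays of low level the values were -0.061 for Kcnd3 1369145_a_at, 0.0297 for Kcnh2 1368343_at, -0.0799 for Kcnj3 1369741_at, -0.0344 for Kcnj3 1388292_at and -0.0619 for Kcnj11 1369782_a_at.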

Other observations

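Dahl S arrays 1 and 3 stood at opposite ends for many of the potassium channel probe sets. Dahl S array 1 held the highest value of 9 of the 20 probe sets and the lowest of 0, and Dahl S array 3 held the highest of 1 and the lowest of 11. Over all probe sets Dahl S array 1 was highest in 18.2% and lowest in 19.5%, and Dahl S array 3 was highest in 21.6% and lowest in 23.2%. Over the probe sets at or above the median mean, to which 15 of the 20 belong, Dahl S array 1 was highest in 14.1% and lowest in 26.8%, and Dahl S array 3 was highest in 29.5% and lowest in 15.1%. The 20 probe sets read 10 genes on the same arrays, so they are not independent. The same 2 arrays lay at the ends of the adipocyte marker range, with medians of -0.77 and 0.83 relative to the mean of 6 arrays. Congenic array 2, with an adipocyte median of 0.68, held the highest value of 4 of the 20 probe sets and the lowest of 3. The part of fat tissue in these counts was not tested. The SD was larger in Dahl S than in congenic hearts for 15 of the 20 probe sets, against 60.0% of all probe sets.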
